A study of Rattus norvegicus with 4 samples.

Results

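The TRIM (tripartite motif) genes were taken as every row of the deposited expression table whose symbol begins with Trim and a digit. This gave 43 genes of 14137 identifiers, each on a row of its own. The libraries came from NRVMs, primary ventricular heart muscle cells of newborn rats, sampled 5 days after infection with lentivirus. The 2 Crat hairpin libraries received a short hairpin RNA against Crat, the carnitine acetyltransferase of mitochondria, and the labels call them KO. The 2 control hairpin libraries received a control hairpin, and the labels call them WT. All 4 were thus infected, and the only comparison is Crat hairpin against control hairpin. The study was set in the context of dilated cardiomyopathy. The arm called KO is a knockdown in a mixed primary culture, and the sources used here do not say whether the libraries of an arm came from separate cultures, so p-values measure a spread that may be technical.

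TRIM proteins carry a RING finger, B-boxes and a coiled coil in series, and most act as ubiquitin ligases: the RING takes ubiquitin from an E2 enzyme and the C-terminal domain picks the substrate. The family is best known for antiviral defence, where several members are themselves induced by interferon, and in striated muscle for the MuRF ligases, which bind the sarcomere and mark its proteins for the proteasome. A few members regulate chromatin. As background, not every gene named Trim encodes a RING: the human proteins TRIM14, TRIM29, TRIM44 and TRIM66 lack one, so the family name covers more than ligases. RING fingers were not searched for in the rat proteins here.

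Depth was uneven. The reads recovered from the values came to 321516 and 1622998 in Crat hairpin replicates 1 and 2 and to 23680064 and 1321735 in control replicates 1 and 2. A single read was worth 3.11 and 0.616 RPM in the Crat hairpin libraries and 0.0422 and 0.757 RPM in the control libraries, where RPM is the reads of a gene scaled to the total of its library. The 43 genes were counted with 624 and 3408 reads in the Crat hairpin libraries and 36661 and 2021 reads in the control libraries. Crat itself stood at 24.9 and 19.7 RPM in the Crat hairpin libraries, against 148 and 156 RPM in the control libraries. RPM is not divided by gene length, so levels are compared between libraries and not between genes.

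The TRIM genes did not move as a block. Of 40 tested, 8 rose with the Crat hairpin and 1 fell, by limma with Benjamini-Hochberg adjusted p under 0.05 over 12949 genes. In the same test 12.6% of all genes rose and 6.36% fell. The risers were Trim25, Trim34, Trim21, Trim15, Trim5, Trim26, Trim2 and Trim24, and the gene that fell was Trim55. The median log2 fold change was 0.23 over the 40 tested TRIM genes and 0.15 over all genes tested. Under median-of-ratios scaling these medians were 0.06 and -0.03, and over all genes 1042 rose and 1252 fell, against 1631 and 823 with scaling to the library total. The same 8 TRIM genes rose under that scaling, and Trim72 fell beside Trim55. In edgeR 10 TRIM genes rose and 5 fell, where 13.7% and 15.9% of all genes did. In DESeq2 7 rose and 1 fell of 34 with an adjusted p, where 6.26% and 7.23% of all genes did. With the adjusted p of the authors' deposited table, and the direction of the limma fold change, 7 were higher and 1 lower. Of all genes 5.36% and 6.12% were. In DESeq2 and in the deposited table, the 7 left out Trim15 and Trim24 and included Trim50, which did not pass with limma. Fold changes are on the log2(RPM + 1) scale and understate those of low genes.

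The groups did not overlap in 20 tested TRIM genes that were higher with the Crat hairpin and in 6 that were lower. Among all genes tested these arrangements made up 39.1% and 21.7%. The 3 genes left untested, Trim29, Trim43a and Trim46, had a mean under 1 RPM over the 4 libraries. Another 5 genes, Trim50, Trim14, Trim69, Trim17 and Trim71, averaged under 1 RPM in the control libraries and passed that filter through the Crat hairpin libraries. The reverse held for Trim66 and Trim36, which averaged under 1 RPM in the Crat hairpin libraries and passed through the control libraries. In Crat hairpin replicate 1, 12 of the 40 tested genes had at most 3 reads.

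**Figure D1:**
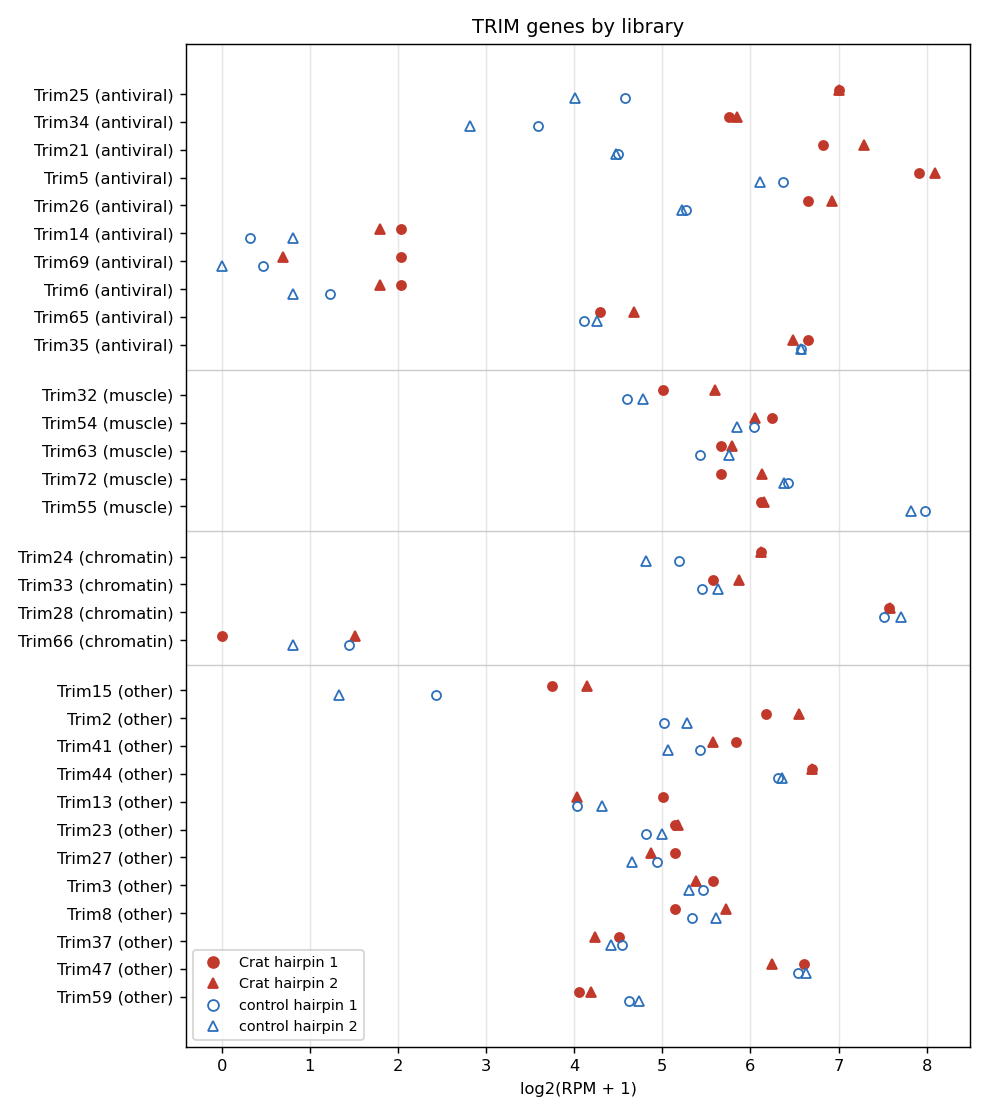
Level of the 31 named TRIM genes in each library as log2(RPM + 1), grouped by role, with Crat hairpin libraries as filled red symbols and control libraries as open blue symbols. Trim25, Trim34, Trim21, Trim5 and Trim26 lie to the right of both controls and Trim55 to the left. Trim15, Trim2 and Trim24 also lie to the right of both controls, while the groups overlap in rows such as Trim63, Trim28 and Trim35.

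The largest rises that passed were those of the antiviral genes Trim25, Trim34 and Trim21. The antiviral group was chosen with earlier results of these data known. Where 12.6% of all genes rose and 6.36% fell, 5 of its 10 tested genes rose, none fell and 5 did not pass. Of the 5 that did not pass, Trim14 and Trim69 had entered the test through their Crat hairpin libraries. Trim25, the ligase that ubiquitinates the RNA sensor RIG-I and also attaches the ubiquitin-like protein ISG15, had 128 and 127 RPM in the Crat hairpin libraries, against 22.9 and 15.1 RPM in the control libraries. Both Crat hairpin libraries were several times above both controls. Its log2 fold change was 2.71 ± 0.23 (SE, 2 libraries against 2; limma adjusted p = 2.9e-05). Trim21, a cytosolic antibody receptor that directs antibody-coated virus to the proteasome, had 112 and 155 RPM in the Crat hairpin libraries, against 21.6 and 21.2 RPM in the control libraries. The Crat hairpin libraries were further from each other than the controls were, and the groups stood well apart. Its log2 fold change was 2.57 ± 0.21 (SE; limma adjusted p = 2.3e-05).

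Trim5 and Trim34 encode close relatives, known from primates as proteins that bind incoming retroviral capsids. Trim5 had 239 and 272 RPM in the Crat hairpin libraries, against 81.8 and 68.1 RPM in the control libraries, a log2 fold change of 1.76 ± 0.14 (SE; limma adjusted p = 1.9e-05). Trim34 had 52.9 and 56.7 RPM in the Crat hairpin libraries, against 11.02 and 6.05 RPM in the control libraries, a log2 fold change of 2.60 ± 0.33 (SE; limma adjusted p = 0.00044). For both genes each Crat hairpin library was above each control. Trim34 rested on 17 and 92 reads in the Crat hairpin libraries and on 261 and 8 reads in the control libraries. The rat genome holds more copies of this cluster (the Trim30 genes), so reads may be split among them and the separate values are uncertain. Trim26, whose product acts on antiviral signalling, had 99.5 and 121 RPM in the Crat hairpin libraries, against 37.7 and 36.3 RPM in the control libraries. The groups again did not overlap, with a log2 fold change of 1.54 ± 0.18 (SE; limma adjusted p = 0.00025).

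The other antiviral members did not pass. Trim14, an adaptor of the mitochondrial antiviral protein MAVS in human cells, had 3.11 and 2.46 RPM in the Crat hairpin libraries, against 0.253 and 0.757 RPM in the control libraries, and these values stand for 1 and 4 reads against 6 and 1 reads. Its log2 fold change of 1.35 ± 0.84 (SE) did not pass (limma adjusted p = 0.31). Trim6, which makes unanchored ubiquitin chains in antiviral signalling, had a log2 fold change of 0.89 ± 0.77 and Trim69 one of 1.13 ± 1.02 (SE), each with 1 read in Crat hairpin replicate 1. At this depth no difference was detectable for these 3 genes. Trim65, a ligase for the RNA sensor MDA5, had 18.7 and 24.6 RPM in the Crat hairpin libraries, against 16.3 and 18.2 RPM in the control libraries. Trim35 had values close together, at 99.5 and 88.7 RPM in the Crat hairpin libraries, against 94.5 and 94.6 RPM in the control libraries (log2 fold change -0.0083 ± 0.14, SE; limma adjusted p = 0.98).

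Leukocyte markers were low in both groups. The 8 of the list in the table summed to 65.3 and 47.4 RPM in the Crat hairpin libraries, against 47.0 and 44.6 RPM in the control libraries. None of the 7 tested markers passed, where 19.0% of all genes did in either direction. The log2 fold changes of these markers ran from -1.03 for Csf1r to 0.76 for Cd68, a macrophage marker. Cd68 and Itgam were higher, and Ptprc and Csf1r lower, in both Crat hairpin libraries than in both controls. Ptprc, the marker shared by all leukocytes, was counted with 1 and 8 reads in the Crat hairpin libraries and with 125 and 8 reads in the control libraries. The part of leukocyte RNA in the antiviral rises was not tested.

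Promoters of the TRIM genes were searched for a motif, and those of some risers are printed. Promoter sequence from RefSeq, build GRCr8, was matched by symbol for 33 of the 43 TRIM genes and for 7 of the 8 that rose; Trim15 and Trim55 were not among the 33. Each window runs from 250 bases before to 50 bases after the annotated start. The core of the interferon-stimulated response element, GAAA followed by any 2 bases and GAAA again, was searched on both strands. It was found in 3 of the 7 risers with a window, Trim34, Trim21 and Trim26, and in 0 of the 25 that were tested without passing. The same letters occur in 3.92% of all 33469 windows of the table. Taking the first listed start of a gene, they occur in 8.03% of the 1221 tested genes that rose and had a window. Among the 7498 tested genes that did not pass and had a window, the share is 2.19%. The 0 of 25 is close to that share. Each of the 3 promoters holds a pair of overlapping matches that form a single run, in capitals below. Trim25, which carries no match in its window, is printed for comparison. A match describes the letters only.
Trim34, chr1:168118793-168119092, plus strand: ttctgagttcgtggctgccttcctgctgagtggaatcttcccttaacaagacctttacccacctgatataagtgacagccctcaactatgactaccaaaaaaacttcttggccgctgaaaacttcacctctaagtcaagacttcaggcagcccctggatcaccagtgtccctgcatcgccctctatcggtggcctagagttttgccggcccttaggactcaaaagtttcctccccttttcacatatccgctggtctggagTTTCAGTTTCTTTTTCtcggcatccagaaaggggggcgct
Trim21, chr1:166399322-166399621, minus strand: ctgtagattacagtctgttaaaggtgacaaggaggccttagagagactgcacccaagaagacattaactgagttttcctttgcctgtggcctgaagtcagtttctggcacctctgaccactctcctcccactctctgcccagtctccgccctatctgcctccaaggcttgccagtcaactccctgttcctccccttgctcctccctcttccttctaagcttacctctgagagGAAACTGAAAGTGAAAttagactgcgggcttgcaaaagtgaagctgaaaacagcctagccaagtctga
Trim26, chr20:1736262-1736561, minus strand: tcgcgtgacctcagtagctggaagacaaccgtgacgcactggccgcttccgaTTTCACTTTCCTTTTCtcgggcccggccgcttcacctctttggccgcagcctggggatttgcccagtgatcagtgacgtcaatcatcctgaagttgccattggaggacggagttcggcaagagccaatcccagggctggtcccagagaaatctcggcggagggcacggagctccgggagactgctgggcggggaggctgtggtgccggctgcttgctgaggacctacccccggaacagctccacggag
Trim25, chr10:74309774-74310073, plus strand: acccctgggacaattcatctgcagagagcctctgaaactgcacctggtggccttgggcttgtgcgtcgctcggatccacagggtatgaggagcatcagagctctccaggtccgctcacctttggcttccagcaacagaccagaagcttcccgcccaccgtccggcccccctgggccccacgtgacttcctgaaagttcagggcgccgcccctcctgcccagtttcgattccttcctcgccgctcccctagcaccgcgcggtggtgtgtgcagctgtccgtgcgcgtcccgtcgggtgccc

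The runs lie at different distances. In Trim21 the first match starts 18 bases before the annotated start, on the strand of the gene. In Trim26 it starts 198 bases before the start and reads on the opposite strand. In Trim34 it begins at base 11, counting the start as 1, also on the opposite strand. Trim5, Trim2 and Trim24 held no match in their windows.

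Of the 5 muscle TRIM genes tested, 1 fell, where 6.36% of all genes did, none rose and 4 did not pass. The median log2 fold change was 0.14, close to the 0.15 of all genes, and -0.053 under median-of-ratios scaling. The gene that fell was Trim55, which encodes MuRF2, a ligase of the titin and microtubule scaffold in growing myofibrils. It had 68.4 and 70.2 RPM in the Crat hairpin libraries, against 252 and 225 RPM in the control libraries. Both Crat hairpin libraries were far below either control, and the ratio of the group means was 0.291. The log2 fold change was -1.77 ± 0.13 (SE; limma adjusted p = 9.6e-06), from 22 and 114 reads in the Crat hairpin libraries. In these bulk samples fewer heart muscle cells and less RNA per cell cannot be told apart.

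The other MuRF genes did not pass. Trim63, which encodes MuRF1, the atrophy ligase of myosin and troponin, had 49.8 and 54.2 RPM in the Crat hairpin libraries, against 42.0 and 53.0 RPM in the control libraries. Its log2 fold change was 0.14 ± 0.20 (SE; limma adjusted p = 0.69), and -0.053 under median-of-ratios scaling. Trim54, which encodes MuRF3, a partner of microtubules and the Z-disc, had 74.6 and 65.3 RPM in the Crat hairpin libraries, against 64.6 and 56.7 RPM in the control libraries, with a log2 fold change of 0.20 ± 0.17 (SE; limma adjusted p = 0.47) and a value of -0.12 in edgeR. The ratio of Trim55 to Trim54 reads was 0.917 and 1.07 in the Crat hairpin libraries, against 3.91 and 3.96 in the control libraries. That of Trim55 to Trim63 was 1.38 and 1.30 in the Crat hairpin libraries, against 6.01 and 4.24 in the control libraries. Both ratios were lower in each Crat hairpin library than in each control; 2 libraries against 2 cannot give an exact permutation p below 0.333.

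Trim72, which encodes MG53, a protein of membrane repair, had 49.8 and 69.0 RPM in the Crat hairpin libraries, against 85.1 and 82.5 RPM in the control libraries. The groups did not overlap, and the log2 fold change of -0.51 ± 0.19 (SE) did not pass (limma adjusted p = 0.099). Trim72 did pass under median-of-ratios scaling, at -0.70 (limma adjusted p = 0.032), and in edgeR, at -0.58 (adjusted p = 0.0013). Trim32, a ligase mutated in a limb-girdle muscular dystrophy, had 31.1 and 47.4 RPM in the Crat hairpin libraries, against 23.2 and 26.5 RPM in the control libraries, a log2 fold change of 0.61 ± 0.27 (SE; limma adjusted p = 0.16). It passed in edgeR (adjusted p = 0.0060).

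Cardiomyocyte markers were lower too. Of 7 tested, 5 fell and none rose, where 6.36% and 12.6% of all genes did. The summed level of these markers was 6469 and 6770 RPM in the Crat hairpin libraries, against 16310 and 16780 RPM in the control libraries. Their log2 fold changes ran from -1.96 for Myh7, beta myosin, to -0.019 for Ryr2, the calcium release channel, with a median of -0.97. Per 1000 RPM of these summed markers, Trim55 stood at 10.6 and 10.4 RPM in the Crat hairpin libraries, against 15.5 and 13.4 RPM in the control libraries. Trim63 stood at 7.69 and 8.01 on that scale in the Crat hairpin libraries, against 2.58 and 3.16 in the control libraries, and Trim54 at 11.5 and 9.65 in the Crat hairpin libraries, against 3.96 and 3.38 in the control libraries. Trim55 was thus lower, and Trim63 and Trim54 higher, relative to the marker sum in both Crat hairpin libraries. Because the sum itself was lower there, a gene with unchanged RPM also rises on this scale. Trim72 was higher on it although its RPM was lower. The sum is weighted to its most abundant gene, Myh6 (log2 fold change -1.58), and Myh7 fell further than Trim55. The direction for Trim55 therefore depends on the markers chosen. Smooth muscle and pericyte markers were lower as well: of 6 tested, 4 fell and Pdgfrb rose, and they summed to 1838 and 1757 RPM in the Crat hairpin libraries, against 4926 and 5035 RPM in the control libraries. Cspg4 fell by 3.46 and Acta2 fell by 2.24 on the log2 scale. Of 6 fibroblast markers, Pdgfra and Dcn rose, with log2 fold changes of 2.10 and 1.12, and 3 collagen and matrix genes fell, with sums of 12660 and 12680 RPM in the Crat hairpin libraries, against 14830 and 15530 RPM in the control libraries. Of 3 endothelial markers tested, Kdr rose, with a log2 fold change of 1.31, and Tek and Cdh5 did not pass. They summed to 49.8 and 52.4 RPM in the Crat hairpin libraries, against 24.6 and 29.5 RPM in the control libraries. The part of these marker differences in the Trim55 result, or in any other TRIM result, was not tested.

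**Figure D2:**
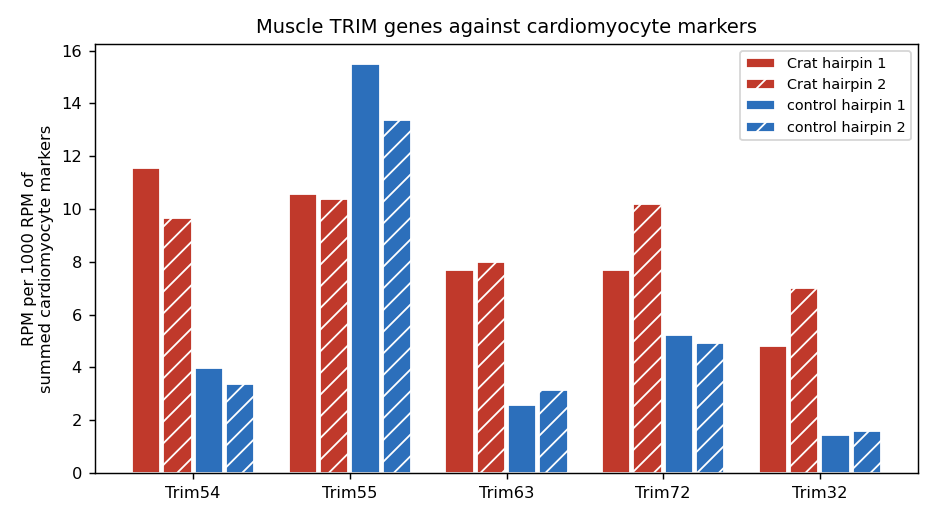
RPM of each muscle TRIM gene per 1000 RPM of the summed cardiomyocyte markers, 1 bar per library, Crat hairpin in red and control in blue. Trim55 is lower in the Crat hairpin libraries (10.6 and 10.4, against 15.5 and 13.4 in the control libraries), and the other 4 genes are higher. The marker sum was lower in the Crat hairpin libraries, so a gene with unchanged RPM also rises on this scale. Bars are not corrected for gene length, so only bars of the same gene can be compared.

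The 4 chromatin TRIM genes tested form the TIF1 group of transcriptional cofactors. Of these, 1 rose, where 12.6% of all genes did, and 3 did not pass. The median log2 fold change of the 4 was 0.07, and -0.12 under median-of-ratios scaling. Trim24, a cofactor of nuclear receptors that reads histone marks, had 68.4 and 68.4 RPM in the Crat hairpin libraries, against 35.4 and 27.2 RPM in the control libraries. Both Crat hairpin libraries were above both controls, with a log2 fold change of 1.11 ± 0.21 (SE; limma adjusted p = 0.0050). By the authors' deposited adjusted p it did not pass (0.084). Trim24 lost its call without control replicate 1 (limma adjusted p = 0.082) or without control replicate 2 (limma adjusted p = 0.075), and in DESeq2 (adjusted p = 0.056). Trim28, the KAP1 corepressor that zinc finger repressors recruit, had close values of 190 and 190 RPM in the Crat hairpin libraries, against 182 and 209 RPM in the control libraries (log2 fold change -0.035 ± 0.11, SE; limma adjusted p = 0.86). Trim33, a regulator of SMAD signalling, had 46.7 and 57.3 RPM in the Crat hairpin libraries, against 42.6 and 48.4 RPM in the control libraries; the groups overlapped. Trim66 had 0 and 3 reads in the Crat hairpin libraries and 41 and 1 reads in the control libraries, too few to show a difference; a count of 0 in Crat hairpin replicate 1 allows up to 9.33 RPM if the limit is set at 3 reads, and up to 11.5 RPM by the exact 95% interval, both for counting error only.

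Of the 21 tested TRIM genes outside these groups, 2 rose and none fell, where 12.6% and 6.36% of all genes did. The median log2 fold change of the 21 was 0.17. Trim2, an NHL-domain ligase of neurofilament in neurons, had 71.5 and 92.4 RPM in the Crat hairpin libraries, against 31.4 and 37.8 RPM in the control libraries. The groups stood apart, with a log2 fold change of 1.21 ± 0.21 (SE; limma adjusted p = 0.0029); without control replicate 1 it did not pass (limma adjusted p = 0.13). Trim15, found at focal adhesions in human cells, had 12.4 and 16.6 RPM in the Crat hairpin libraries, against 4.39 and 1.51 RPM in the control libraries, from 4 and 27 reads against 104 and 2 reads. In Crat hairpin replicate 1 the exact (Clopper-Pearson) 95% interval for counting error ran from 3.39 to 31.9 RPM, which reaches below control replicate 1. The log2 fold change of Trim15 was 2.06 ± 0.54 (SE; limma adjusted p = 0.026). By the authors' deposited adjusted p it did not pass (0.15). It lost its call without control replicate 1 (limma adjusted p = 0.14), without control replicate 2 (limma adjusted p = 0.28) and in DESeq2 (adjusted p = 0.11). RefSeq also lists a Trim15 pseudogene beside it, so its reads may be shared.

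The remaining genes of this group did not pass. Trim44 had 103 and 103 RPM in the Crat hairpin libraries, against 78.6 and 81.0 RPM in the control libraries. The libraries of each group were close and the groups apart, yet the log2 fold change of 0.36 ± 0.14 (SE) did not pass (limma adjusted p = 0.11), and it was 0.17 under median-of-ratios scaling. Trim47 had 96.4 and 74.6 RPM in the Crat hairpin libraries, against 91.8 and 98.4 RPM in the control libraries, and passed in edgeR as lower (log2 fold change -0.45, adjusted p = 0.012); with limma it was -0.16 ± 0.17 (SE; adjusted p = 0.54). Trim59 had 15.6 and 17.3 RPM in the Crat hairpin libraries, against 23.7 and 25.7 RPM in the control libraries, a log2 fold change of -0.56 ± 0.29 (SE; limma adjusted p = 0.21) that passed in edgeR (adjusted p = 0.040).

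Trim41, Trim13, Trim23, Trim27, Trim3, Trim8 and Trim37 had log2 fold changes between 0.46 for Trim41 and -0.11 for Trim37, and none passed with limma. Among them are the endoplasmic reticulum ligase Trim13, Trim23 with its ARF domain, and Trim37, mutated in mulibrey nanism. Trim8, a regulator of cytokine signalling, had 34.2 and 51.8 RPM in the Crat hairpin libraries, against 39.3 and 47.7 RPM in the control libraries. The groups overlapped for Trim13, Trim27, Trim3, Trim8 and Trim37 and not for Trim41 and Trim23. Signs of Trim13, Trim27, Trim3, Trim8 and Trim37 turned under some settings. The 9 tested genes that are not named by rule averaged between 1.18 and 19.8 RPM, with log2 fold changes between -1.94 and 2.65 and none past the threshold.

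**Figure D3:**
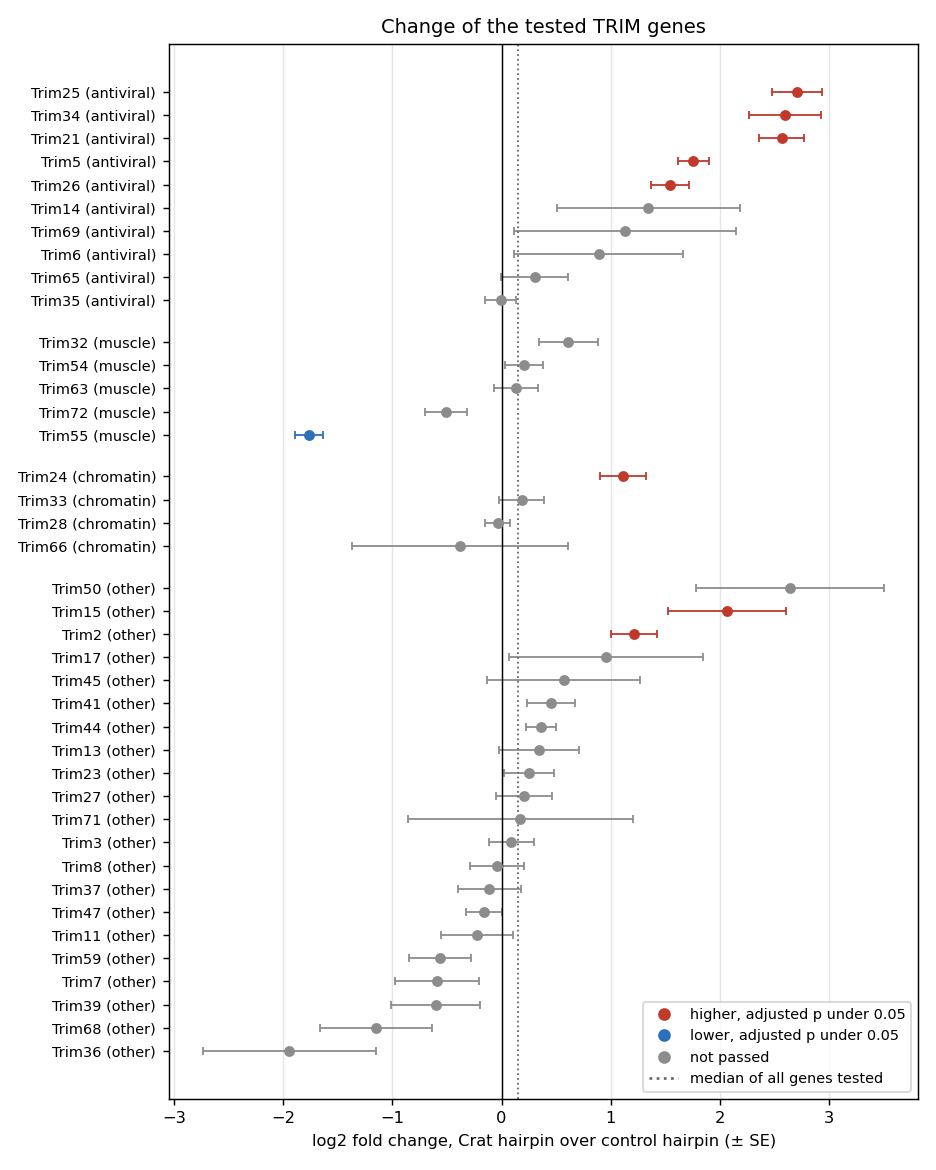
Log2 fold change of the 40 tested TRIM genes, Crat hairpin over control hairpin, with SE bars from limma; red and blue mark genes that rose or fell with adjusted p under 0.05 and the dotted line is the median of all genes tested, 0.15. The 5 antiviral risers lie between 1.54 and 2.71, and Trim55 at -1.77 is the fall that passed.

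In RefSeq's order of rat genes (build GRCr8) some TRIM genes are direct neighbours. Trim6, Trim34 and Trim5 follow each other with no other coding gene between them, at log2 fold changes of 0.89, 2.60 and 1.76, the first not passing. Trim15 and Trim26 also adjoin and both rose, at 2.06 and 1.54. Trim39, beyond 5 other coding genes, had 9.33 and 23.4 RPM in the Crat hairpin libraries, against 24.4 and 21.9 RPM in the control libraries, and did not pass. Trim21 and Trim68 are separated by 8 coding genes, with log2 fold changes of 2.57 and -1.15, and Trim68 did not pass (limma adjusted p = 0.16) but passed in edgeR, at -1.49 (adjusted p = 0.0046). The neighbours Trim41 and Trim7, Trim17 and Trim11, and Trim47 and Trim65 did not pass in either member.

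**Figure D4:**
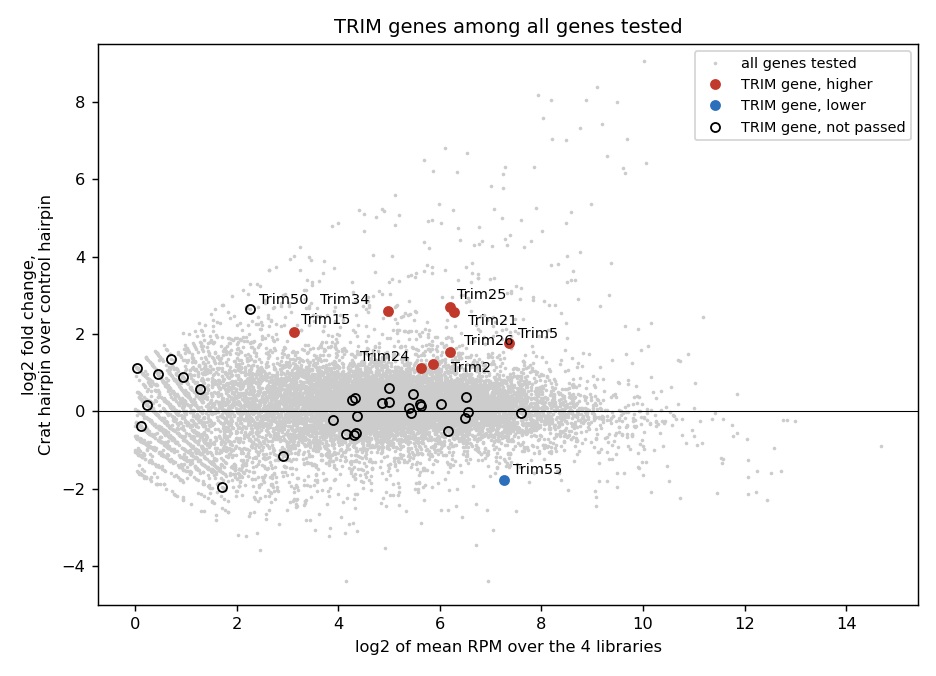
Log2 fold change, Crat hairpin over control hairpin, against log2 of mean RPM over the 4 libraries; grey points are all 12949 genes tested and circles the 40 TRIM genes. The TRIM risers lie between 1.11 and 2.71 on the vertical axis, inside the upper part of the grey cloud, and several genes rose far more.

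A further list held TRIM genes under other symbols and relatives that need not have the full motif. Of its 8 tested genes, 2 rose and 2 fell, where 12.6% and 6.36% of all genes did. The median log2 fold change of the 8 was 0.46. Pml, the TRIM protein of nuclear bodies, had 152 and 166 RPM in the Crat hairpin libraries, against 36.0 and 53.7 RPM in the control libraries, a log2 fold change of 1.83 ± 0.20 (SE; limma adjusted p = 1.7e-04). Cmya5, which encodes the heart and muscle protein myospryn, rose by 0.64 ± 0.18. The myospryn relatives Fsd2 and Fsd1l fell by 1.47 ± 0.25 and 1.86 ± 0.36 (SE). Fsd1l was counted with 4 reads in Crat hairpin replicate 1.

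The enzymes that supply the RING ligases were tested beside them. Of 19 identifiers for ubiquitin, E1 and E2 enzymes, 7 rose and 2 fell, where 12.6% and 6.36% of all genes did, with a median log2 fold change of 0.31, and 0.12 under median-of-ratios scaling. Uba7, the E1 that activates ISG15, had 121 and 133 RPM in the Crat hairpin libraries, against 4.90 and 2.27 RPM in the control libraries, a log2 fold change of 4.87 ± 0.33 (SE; limma adjusted p = 7.0e-06). Ube2l6, the E2 that carries ISG15 to its ligases, rose by 1.28 ± 0.24, and Ube2e2 by 1.13 ± 0.29. Uba1, the main E1 of ubiquitin, rose by 0.70 ± 0.08 (SE). Several genes of this list belong to families with close copies, and Rps27a stands on 2 identifiers.

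Of 22 other ubiquitin ligases of heart and skeletal muscle tested, 2 rose and 3 fell, where 12.6% and 6.36% of all genes did. Their median log2 fold change was 0.14, near the 0.15 of all genes, and -0.048 under median-of-ratios scaling. Fbxo32, the atrogin-1 ligase that is often induced together with MuRF1 in atrophy, had 62.2 and 64.7 RPM in the Crat hairpin libraries, against 32.8 and 36.3 RPM in the control libraries, a log2 fold change of 0.86 ± 0.19 (SE; limma adjusted p = 0.012). Mul1, a mitochondrial ligase, rose by 0.86 ± 0.24 (SE). Asb2, a muscle ligase of filamins, fell by 2.01 ± 0.45, and Fbxl22, a Z-disc ligase, fell by 1.71 ± 0.37 (SE), with 3 and 2 reads in Crat hairpin replicate 1.

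**Figure D5:**
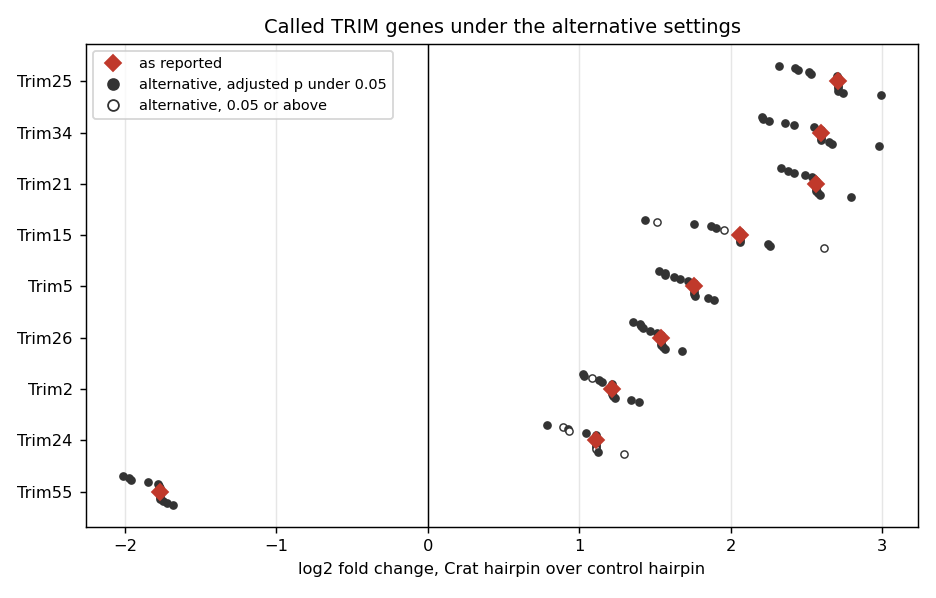
Log2 fold change of the 9 called TRIM genes as reported (red diamonds) and under the 15 alternative settings (circles, filled where adjusted p was under 0.05), Crat hairpin over control hairpin. Trim25, Trim21, Trim5 and Trim55 passed under all 15, Trim34 and Trim26 under 14, Trim2 under 13, and Trim15 and Trim24 under 10.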

How the data were processed

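One table was deposited for the series, with 14318 rows, 4 library columns of signal, the authors' group means and the authors' p-value and adjusted p-value. Although the deposited signal is headed TPM, it holds whole reads: dividing by 1 fixed step in each library returned whole numbers for 100% of values within 0.02 of a read. The unit is therefore RPM, with no division by length, and reads were recovered from it. Kallisto, DESeq2 (no versions) and the build mRatBN7.2 are named, per the submitters' processing notes; how transcripts were joined into genes is not stated there. Of 14137 identifiers, 140 stand on several rows and were used once.

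Where the mean reached 1 RPM, genes were fitted as log2(RPM + 1) with limma 3.58.1 (R 4.3.3, variance trend, two-sided, Benjamini-Hochberg over all genes tested, threshold 0.05). The fit gives the 4 libraries the same variance although their totals differ 73.7-fold. Scripts were tested on simulated data. The design assumed TPM, and the same test was kept for RPM. Alternatives were other pseudocounts, filters, variance priors and scaling, leaving out each library, the replicate number as a block, edgeR 4.0.16 and DESeq2 1.42.0 on the recovered reads, and the authors' adjusted p. Chi-square tests of the reads within each pair gave 1.29 per degree of freedom for the Crat hairpin libraries and 1.47 for the control libraries, above counting noise, so the libraries were not treated as copies of one library; this does not show that they are separate cultures. Named are TRIM genes that passed, those averaging 20 RPM or more, those tested in the antiviral, muscle or chromatin group, and up to 4 genes of each further list; other genes named as counts, neighbours, markers or examples were chosen after their values were seen. The members, groups and lists were chosen with earlier results of these data known. Trim30 and its lettered copies, Trim38 and Trim56 were also meant for the antiviral group. None is among the TRIM genes found by symbol, so they were not analysed here.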

Additional observations from a re-analysis of the deposited data

How the results depend on the processing

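Among the 15 alternatives, either other pseudocount, no filter and a filter at 5 RPM also gave 8 risers and 1 fall. The robust prior and the replicate number as a block did so too. In these fits between 10.2% and 15.9% of all genes rose and between 5.16% and 7.93% fell. The labels link libraries of the 2 groups by a number only, and no pairing was assumed. The correlation of deviations between libraries of the same number was -0.0031. Counting noise in Crat hairpin replicate 1 could hide a shared batch there. Without a variance trend 3 TRIM genes rose and 1 fell, where 2.05% and 0.61% of all genes did. Median-of-ratios scaling gave 2 falls and edgeR 5, with 10 rises in edgeR. DESeq2 and the authors' deposited adjusted p gave 7 rises and 1 fall each, without Trim15 and Trim24 and with Trim50. For the deposited adjusted p, the direction was that of the limma fold change. With a library left out the rises ran from 5, without control replicate 1 (where 3.29% of all genes rose), to 13, without Crat hairpin replicate 2 (28.3%), and the falls from 1 to 7, with 7 without Crat hairpin replicate 2 (20.4% of all genes); an arm then holds 1 library, which is assumed to vary like the others. The cause of these shifts was not tested.

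None of the 9 called genes changed sign under the alternatives run, but most of these could not turn one. Other filters, variance priors, the block and the authors' adjusted p leave the fold change as it was. The groups did not overlap in the 9 genes, so another pseudocount or a left-out library keeps the sign. Only median-of-ratios scaling, edgeR and DESeq2 could have turned it. Signs of uncalled genes turned under median-of-ratios scaling (Trim33 -0.0058, Trim63 -0.053, Trim3 -0.097), in edgeR (Trim13 -0.0059, Trim27 -0.18, Trim54 -0.12, Trim3 -0.23, Trim8 0.046) and in DESeq2 (Trim27 -0.051, Trim54 -0.035, Trim63 -0.013, Trim3 -0.15). With a library left out, log2 fold changes ran from -0.14 to 0.83 for Trim13, -0.027 to 0.30 for Trim63, -0.0057 to 0.19 for Trim3, -0.090 to 0.074 for Trim35, -0.14 to 0.065 for Trim28, -0.33 to 0.25 for Trim8, -0.25 to 0.025 for Trim37, -0.35 to 0.021 for Trim47 and -0.69 to 0.38 for Trim66. Without a variance trend Trim34 (limma adjusted p = 0.053), Trim26 (0.052), Trim2 (0.089), Trim24 (0.088) and Trim15 (0.11) missed the threshold at the same fold changes. Depth limits genes under about 10 RPM most, where 3 reads in Crat hairpin replicate 1 stand for 9.33 RPM. Counting error in that library was also wide above this level. The exact 95% interval there ran from 14.9 to 57.2 RPM for Trim13, at 31.1 RPM. It ran from 17.1 to 61.2 RPM for Trim8, at 34.2 RPM, and from 33.2 to 88.5 RPM for Trim41, at 56.0 RPM. Genes at such levels that did not pass are therefore not shown to be unchanged.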

Other observations

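Trim50, a gene singled out after its values were seen, had 3.11 and 15.4 RPM in the Crat hairpin libraries, against 0.718 and 0 RPM in the control libraries. These stand for 1 and 25 reads in the Crat hairpin libraries and 17 and 0 reads in the control libraries. Crat hairpin replicate 2 had the highest level. Its log2 fold change was 2.65 ± 0.86 (SE) and did not pass (limma adjusted p = 0.061), whereas it passed in DESeq2 (adjusted p = 0.013), in edgeR (adjusted p = 4.6e-06) and in the authors' deposited table (adjusted p = 0.020). Trim50 is known as a ligase of stomach parietal cells.

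At the other end Trim36, a ligase that binds microtubules, had 0 and 1.85 RPM in the Crat hairpin libraries, against 4.39 and 6.81 RPM in the control libraries, or 0 and 3 reads against 104 and 9 reads. Its log2 fold change was -1.94 ± 0.79 (SE; limma adjusted p = 0.13). Trim29, untested, had 0 reads in both Crat hairpin libraries, which allows up to 1.54 RPM over the group with the limit at 3 reads, and 10 and 0 reads in the control libraries.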
